A study of Mus musculus with 2 samples.

Results

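Potassium channel genes were described in polyadenylated RNA of whole lung from 1 adult female C57BL/6J mouse aged 10 weeks. They were taken as the protein-coding genes whose mouse symbol is Kcn followed by letters and a number, matched by gene identifier in both gene tables, and 93 genes of the 21474 protein-coding genes in the files met that rule. They comprised 52 voltage-gated subunits (30 pore-forming subunits of their own, 10 modifiers that need a partner and 12 accessory subunits), 15 inward rectifiers, 14 two-pore subunits and 12 calcium-activated subunits (8 pore-forming and 4 accessory). Both libraries came from the same animal and the labels give them as technical replicates 2 and 1 of biological replicate 1, with replicate 2 prepared later; the labels leave unsaid whether 1 RNA extraction served both. They form 1 group with no treatment and no contrast of conditions, so a difference between them is one between 2 libraries, with no replicate check and no p-value. Rule and grouping used names only, not measured values.

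Potassium channels let potassium leave cells along its gradient and so hold the membrane potential negative. In the lung they are known for setting the drive for chloride secretion and sodium uptake in airway and alveolar epithelium, and for setting the tone of airway and pulmonary artery smooth muscle. Voltage-gated subunits open on depolarisation, inward rectifiers and two-pore subunits carry resting currents, and calcium-activated subunits open when cytosolic calcium rises. Accessory subunits have no pore and change the gating or traffic of a pore-forming partner.

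The pore-forming members share the selectivity filter, the stretch of the pore loop that strips water from potassium ions. A search of annotated coding sequences for codons of threonine or serine, any residue, glycine, then tyrosine, phenylalanine or leucine, then glycine, read in the coding frame and on the coding strand alone, found a match in all 77 pore-forming and modifier members and in 0 of the 16 accessory members. The same search matched 5.45% of 21087 protein-coding genes, so a match alone does not mark a channel. All 14 two-pore members held a pair of matches, and such subunits are known to carry a pair of pore loops; Kcna6 and Kcnh2 also held 2 matches, and the stretch of Kcnh2 shown is the one at its known filter. The coding stretches around the filter are printed here from GENCODE release M21 (GRCm38, the assembly also called mm10), 5′ to 3′ on the coding strand, with the filter codons in capitals, for pore-forming members on which the levels and ratios turn.
Kcnj15: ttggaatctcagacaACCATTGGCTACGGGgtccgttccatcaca
Kcnj2: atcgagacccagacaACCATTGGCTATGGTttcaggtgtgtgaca
Kcnj3: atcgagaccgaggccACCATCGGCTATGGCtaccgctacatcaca
Kcnj8: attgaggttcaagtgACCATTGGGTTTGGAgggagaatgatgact
Kcnk2, first pore loop: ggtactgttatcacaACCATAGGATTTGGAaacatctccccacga
Kcnk2, second pore loop: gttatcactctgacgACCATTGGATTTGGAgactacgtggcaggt
Kcnk1, first pore loop: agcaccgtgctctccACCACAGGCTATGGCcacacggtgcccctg
Kcnk1, second pore loop: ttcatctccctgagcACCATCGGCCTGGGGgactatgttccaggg
Kcnk3, first pore loop: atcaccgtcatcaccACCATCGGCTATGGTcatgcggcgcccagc
Kcnk3, second pore loop: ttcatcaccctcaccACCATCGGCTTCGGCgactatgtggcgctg
Kcnq1: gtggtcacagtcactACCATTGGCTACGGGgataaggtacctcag
Kcnh2: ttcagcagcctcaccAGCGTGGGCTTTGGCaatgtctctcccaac
Kcns3: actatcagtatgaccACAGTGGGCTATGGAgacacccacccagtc
Kcnn4: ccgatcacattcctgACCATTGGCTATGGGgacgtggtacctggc
The stretch of Kcnj15 lies at chr16:95295965-95296009 (plus strand), that of Kcnj2 at chr11:111072192-111072236 (plus), that of Kcnj3 at chr2:55437612-55437656 (plus) and that of Kcnj8 at chr6:142566433-142566477 (minus), each inside 1 coding exon. The second loops of Kcnk1 and Kcnk3 lie at chr8:126025314-126025358 (plus) and chr5:30622187-30622231 (plus). Kcnh2 has its stretch at chr5:24325540-24325584 (minus), Kcns3 at chr12:11091560-11091604 (minus) and Kcnn4 at chr7:24379183-24379227 (plus). The others run across an exon junction of their gene. GC content of these stretches ran from 44.4% for Kcnj8 and the first loop of Kcnk2 to 66.7% for the first loop of Kcnk1.

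The tables held 17110871 estimated reads in replicate 2 and 16104423 in replicate 1, and 19549 and 17853 genes had a count above 0. A count of 0 allows up to 3 counts, or 0.175 CPM (counts per 1000000) in replicate 2 and 0.186 CPM in replicate 1. Lung markers were present in both: the summed TPM (transcripts per 1000000) of 7 alveolar type 2 markers was 48203 in replicate 2 and 3625 in replicate 1, and all 7 passed 1 TPM in each. Across the 14139 genes whose TPM averaged 1 or more, 39.3% had a TMM-scaled count over 2-fold higher in replicate 2, 28.2% had one over 2-fold lower, and the median log2 ratio was 0.19. Ratios of counts are given as replicate 2 over replicate 1, and their 95% intervals cover counting error only. In whole tissue, fewer cells of a type and less RNA per cell cannot be told apart.

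Most members were low or absent. At a threshold of 1 TPM, 29 members were detected in replicate 2 and 25 in replicate 1, with 22 in both, against 49.9% of all protein-coding genes detected in both. The threshold was passed by 7 more members only in replicate 2, and by 3 more only in the replicate 1 library. There were 44 members with counts that stayed below 1 TPM in both libraries, and 17 with 0 counts in both. Among all 21474 protein-coding genes, 2302 passed only in replicate 2 and 501 passed only in the other library. A further 3076 of these genes had counts but stayed below 1 TPM in both libraries, and 4882 had 0 counts in both. Members detected in both were 6 of 15 inward rectifiers, 6 of 14 two-pore subunits, 7 of 52 voltage-gated subunits and 3 of 12 calcium-activated subunits.

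All members together summed to 191.7 TPM in replicate 2 against 262.55 TPM in replicate 1 (mean 227 ± 50.1, SD, n = 2 technical replicates). Voltage-gated subunits summed to 86.28 TPM in replicate 2 against 102.56 TPM in replicate 1, and inward rectifiers to 46.40 TPM in replicate 2 against 93.86 TPM in replicate 1. By summed TPM, two-pore subunits were closest between the libraries, at 41.62 TPM in replicate 2 against 44.22 TPM in replicate 1. Single two-pore genes differed far more. The calcium-activated sum was 17.40 TPM in replicate 2 against 21.91 TPM in replicate 1. By summed counts, voltage-gated subunits were instead higher in replicate 2 (183.8 CPM against 139.8 CPM in replicate 1). So were two-pore subunits (115.1 CPM against 88.5 CPM), while inward rectifiers and calcium-activated subunits stayed lower in replicate 2. In TPM, the accessory subunits of the voltage-gated channels held more of their class than its pore-forming members did. They had 47.63 TPM against 32.27 TPM in replicate 2, and 79.86 TPM against 11.47 TPM in replicate 1. Summed counts put them below the pore-forming members in replicate 2 (79.6 CPM against 87.4 CPM) and above them in replicate 1 (81.0 CPM against 37.4 CPM). The 10 members of highest mean TPM held 56.9% of the summed TPM in replicate 2 and 75.8% in replicate 1.

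**Figure D1:**
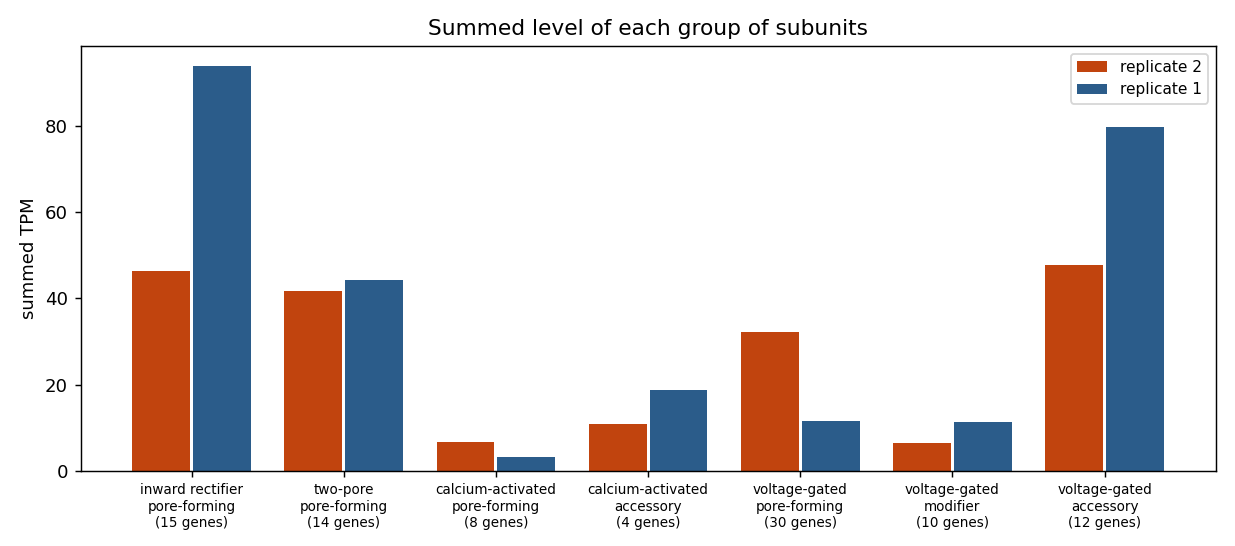
Summed TPM (vertical axis) of the members in each group of subunits (horizontal axis), replicate 2 at the left and replicate 1 at the right of each pair; bars are single libraries, without error bars. The 14 two-pore subunits stand at 41.62 TPM in replicate 2 against 44.22 TPM in replicate 1, and the 15 inward rectifiers at 46.40 TPM in replicate 2 against 93.86 TPM in replicate 1.

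The order of the members was kept in part. Kcne2 and Kcnj15 ranked first and second in both libraries, and Spearman's rho of TPM between the libraries was 0.770 over all 93 members but 0.446 over the 28 members with a mean of at least 1 TPM, which share 1 animal and are given as a description. Of these 28, 9 had the higher TPM in replicate 2 and 19 in replicate 1. By counts, 9 were over 2-fold higher in replicate 2 and 7 over 2-fold lower, beside 39.3% and 28.2% of all genes tested, and 12 lay within 2-fold. The median log2 ratio of the 28 was -0.37, against 0.19 for all genes tested; scaling by total counts moved the median of all genes to 0.45 and that of the members to -0.10.

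**Figure D2:**
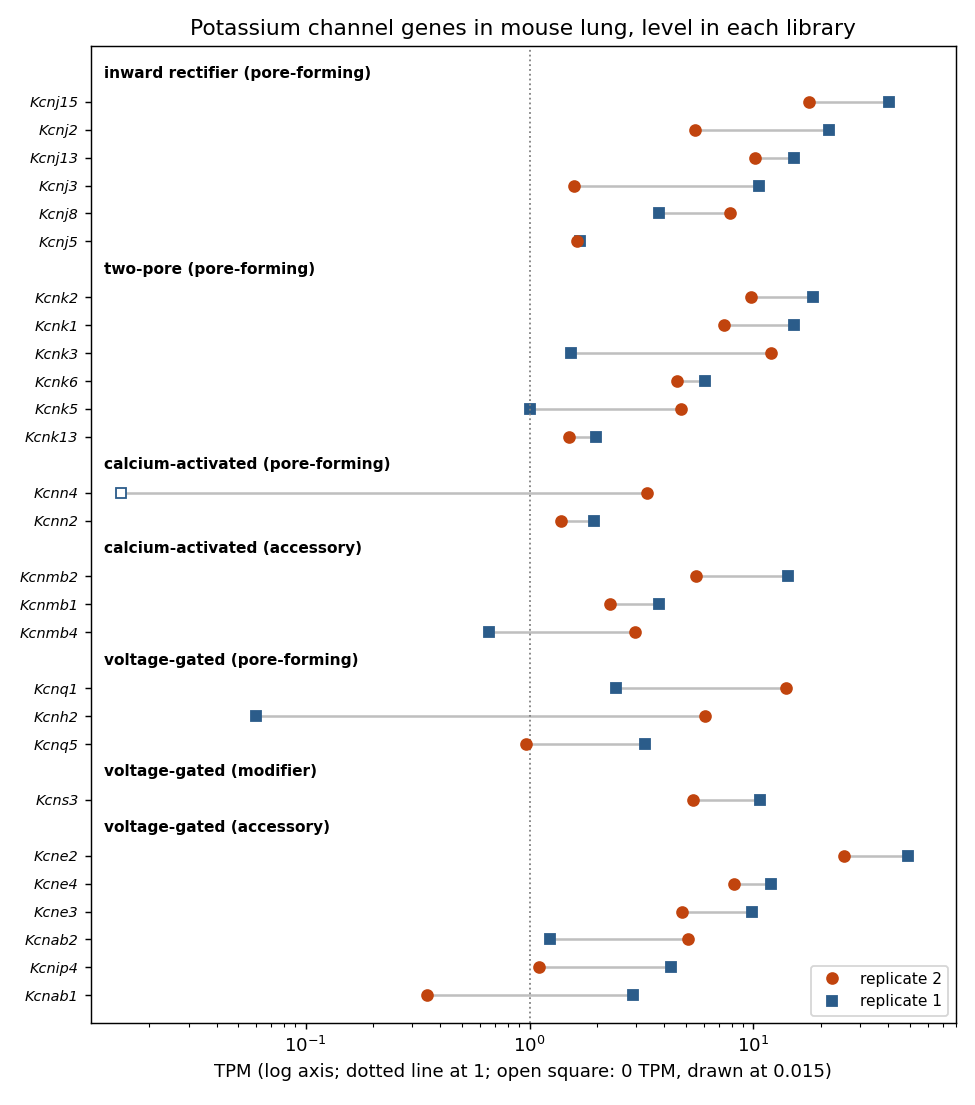
TPM of 27 members with a mean of at least 1 TPM (log horizontal axis), grouped by class; circles are replicate 2, squares are replicate 1, each a single library, and the dotted line marks 1 TPM. Kcne2 has the highest level in both libraries, and Kcnn4, at 0 TPM in replicate 1, is drawn as an open square at the left edge.

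Among inward rectifiers, Kcnj15 was the highest. Kcnj15 (ENSMUSG00000062609.9, chr16:95257558-95300260), which encodes Kir4.2, had 17.72 TPM in replicate 2 against 40.35 TPM in replicate 1, from 1384 and 2231 counts. Its count ratio was 2.05-fold lower in replicate 2 (interval 1.92 to 2.20). On the log2 scale this is -1.04, and it came within 2-fold with total counts (-0.78), with the GC trend of all genes subtracted (-0.74) and with the trend on the GC content of expressed transcripts (-0.17). Kcnj2 (ENSMUSG00000041695.2, chr11:111066164-111076821) encodes Kir2.1, the strong rectifier that stabilises the resting potential of muscle and endothelium. Kcnj2 had 5.46 TPM in replicate 2 against 21.79 TPM in replicate 1, from 453 and 1282 counts, which made it 3.61-fold lower in replicate 2 (3.24 to 4.02). Kcnj13, which encodes the epithelial channel Kir7.1, had 10.21 TPM in replicate 2 against 15.17 TPM in replicate 1, within 2-fold. Of its 1270 exon bases, 623 are shared with Gigyf2 on the opposite strand (14.61 TPM in replicate 2, 59.16 TPM in replicate 1), and whether counting used strand is not given in the sources used here.

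The G protein-gated and ATP-sensitive rectifiers differed in direction. Kcnj3 and Kcnj5 encode the subunits that form the muscarinic potassium channel of atrial muscle. Kcnj3 (ENSMUSG00000026824.7, chr2:55435970-55598145) had 1.58 TPM in replicate 2 against 10.62 TPM in replicate 1, from 100 and 453 counts, and was 5.77-fold lower in replicate 2 (4.64 to 7.24). Kcnj5 had 1.63 TPM in replicate 2 against 1.68 TPM in replicate 1, the closest pair of levels among the 28 members. Summed TPM of 9 cardiac muscle markers was 1358 in replicate 2 and 116 in replicate 1. Of these, Myl2 had 1 count in replicate 2 and 0 in replicate 1, and Ryr2 ran the other way (0.93 TPM against 1.59 TPM). The part of cardiac tissue in these levels was not tested. Kcnj8, the Kir6.1 pore of ATP-sensitive channels in vascular smooth muscle, had 7.84 TPM in replicate 2 against 3.79 TPM in replicate 1 and was 2.29-fold higher in replicate 2 (1.78 to 2.96). Abcc9, which lies 16248 bases from Kcnj8 on chromosome 6 and encodes the sulfonylurea receptor that joins this pore, had 1.84 TPM in replicate 2 against 5.16 TPM in replicate 1, so its levels ran the other way.

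Two-pore subunits carry the background current of many cells. Kcnk2 (ENSMUSG00000037624.11, chr1:189207930-189402273) encodes TREK-1, a channel opened by stretch and lipids, and had 9.73 TPM in replicate 2 against 18.44 TPM in replicate 1. With 410 and 637 counts it was 1.98-fold lower in replicate 2 (1.75 to 2.25), just inside the 2-fold threshold. On the log2 scale it passed 2-fold with DESeq2 scaling (-1.03) and with the GC trend of all genes subtracted (-1.55). With the trend on the GC content of expressed transcripts it was at -1.004. It stayed within 2-fold with total counts (-0.72) and the TPM ratio (-0.92). It shares 604 exon bases with the antisense gene A430027H14Rik, which had 22 counts in replicate 2 and 1 in replicate 1. Kcnk1 (ENSMUSG00000033998.8, chr8:125995170-126030685), which encodes TWIK-1, had 7.42 TPM in replicate 2 against 15.14 TPM in replicate 1 and was 1.84-fold lower in replicate 2 (1.56 to 2.18; 248 and 359 counts). These genes were both higher in replicate 1, while the TASK genes Kcnk3 and Kcnk5 were higher in replicate 2.

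Kcnk3 (ENSMUSG00000049265.6, chr5:30588170-30625271) encodes TASK-1, a channel closed by acid whose human gene carries loss-of-function mutations in pulmonary arterial hypertension. Kcnk3 had 12.02 TPM in replicate 2 against 1.53 TPM in replicate 1, from 688 and 62 counts, and was 8.71-fold higher in replicate 2 (6.71 to 11.5). Kcnk5, which encodes the alkaline-activated TASK-2, had 4.74 TPM in replicate 2 against 1.01 TPM in replicate 1 and was 5.19-fold higher in replicate 2. Kcnk6, which encodes TWIK-2, had 4.56 TPM in replicate 2 against 6.11 TPM in replicate 1, and Kcnk13, which encodes THIK-1, had 1.50 TPM in replicate 2 against 1.99 TPM in replicate 1, both within 2-fold. Each of these 6 two-pore genes passed 1 TPM in both libraries, and 6 other two-pore genes (Kcnk4, Kcnk9, Kcnk10, Kcnk15, Kcnk16 and Kcnk18) had 0 counts in both. Kcnk16 lies 79567 bases from Kcnk5 on chromosome 14.

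Among calcium-activated subunits, 3 of the 4 accessory genes of the large-conductance channel were above its pore gene. Kcnmb2, an accessory subunit that inactivates the channel, had 5.56 TPM in replicate 2 against 14.27 TPM in replicate 1 and was 3.31-fold lower in replicate 2 (2.72 to 4.05). Kcnmb1, the accessory subunit typical of smooth muscle, had 2.28 TPM in replicate 2 against 3.77 TPM in replicate 1. Kcnmb4 had 2.96 TPM in replicate 2 against 0.66 TPM in replicate 1. The pore gene Kcnma1 had 0.11 TPM in replicate 2 against 0.12 TPM in replicate 1, from 6 and 4 counts, below all 3 of these accessory genes in each library. Lrrc26, which encodes a further accessory subunit of this channel, had 20.65 TPM in replicate 2 against 0.53 TPM in replicate 1, from 328 and 6 counts. Summed TPM of 9 smooth muscle and pericyte markers was 915 in replicate 2 and 104 in replicate 1, with none of the 9 at 0; their part in these levels was not tested.

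The small and intermediate conductance genes were low. Kcnn4 (ENSMUSG00000054342.7, chr7:24370263-24386690) encodes the intermediate-conductance channel of epithelia, red cells and lymphocytes. Kcnn4 had 3.36 TPM in replicate 2 against 0 TPM in replicate 1, from 98 and 0 counts. Set against a floor of 3 counts in replicate 1, it was 25.6-fold higher in replicate 2, and the exact interval of its counts began at 20.5-fold higher. Kcnn2 (ENSMUSG00000054477.10, chr18:45268860-45686024), a small-conductance channel, had 1.38 TPM in replicate 2 against 1.95 TPM in replicate 1 from 32 and 31 counts, a ratio 1.23-fold lower in replicate 2 whose interval reached from 2.09-fold lower to 1.37-fold higher. Kcnt1, which encodes a sodium-activated relative, had 0 counts in both libraries.

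Among voltage-gated pores, Kcnq1, Kcnh2 and Kcnq5 each had a mean of at least 1 TPM and a ratio past 2-fold. Kcnq1 (ENSMUSG00000009545.10, chr7:143106362-143427042) encodes Kv7.1, the pore of the slow cardiac delayed rectifier and of basolateral channels in epithelia. Kcnq1 had 14.00 TPM in replicate 2 against 2.43 TPM in replicate 1, from 444 and 45 counts, and was 7.74-fold higher in replicate 2 (5.69 to 10.8). Its posterior mean TPM, a second estimate in the authors' tables, was 18.45 in replicate 2 and 9.61 in replicate 1. The antisense RNA Kcnq1ot1, which shares 121 exon bases with Kcnq1, went the other way, with 54 counts in replicate 2 and 185 in replicate 1.

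Kcnh2 (ENSMUSG00000038319.10, chr5:24319589-24351604) encodes the rapid delayed rectifier known as hERG in humans. Kcnh2 had 6.09 TPM in replicate 2 against 0.06 TPM in replicate 1, from 225 and 2 counts, a ratio of 88.3 with a wide interval of 24.2 to 733. Kcnq5, one of the Kv7 genes of vascular smooth muscle, had 0.96 TPM in replicate 2 against 3.28 TPM in replicate 1 and was 3.04-fold lower in replicate 2. Kcnd3 (ENSMUSG00000040896.12, chr3:105452330-105674002), which encodes the transient outward channel Kv4.3, lay below the threshold on the mean and had 0.27 TPM in replicate 2 against 1.11 TPM in replicate 1 and was 3.96-fold lower in replicate 2 (2.56 to 6.30; 28 and 87 counts).

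Kcna5, which encodes Kv1.5, a channel described in pulmonary artery smooth muscle of the rat, had 0.72 TPM in replicate 2 against 0.54 TPM in replicate 1, from 30 and 16 counts. All 8 Kcna genes together summed to 2.13 TPM in replicate 2 against 1.73 TPM in replicate 1. The modifier Kcns3 (ENSMUSG00000043673.6, chr12:11090202-11151056), whose Kv9.3 product carries current only together with a pore-forming partner, had 5.35 TPM in replicate 2 against 10.67 TPM in replicate 1 (232 and 321 counts; 1.76-fold lower in replicate 2, interval 1.48 to 2.10).

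Kcne genes were the leading accessory subunits. Kcne2 (ENSMUSG00000039672.8, chr16:92292389-92298129), a single-pass subunit that keeps Kv7.1 open in epithelia, was the highest member of all, with 25.52 TPM in replicate 2 against 48.85 TPM in replicate 1. From 606 and 802 counts it was 1.69-fold lower in replicate 2 (1.52 to 1.88), and it ranked 3039 among protein-coding genes by mean TPM. Kcne4, which inhibits Kv7.1, had 8.20 TPM in replicate 2 against 12.03 TPM in replicate 1 (ENSMUSG00000047330.8, chr1:78816758-78820028). Its scaled counts were level, at 285 and 226 counts and a ratio 1.01-fold lower in replicate 2 whose interval ran from 1.21-fold lower to 1.18-fold higher. Kcne3, which like Kcne2 holds Kv7.1 open in epithelia, had 4.79 TPM in replicate 2 against 9.91 TPM in replicate 1, within 2-fold by counts. The 5 Kcne genes summed to 38.56 TPM in replicate 2 against 70.79 TPM in replicate 1, above Kcnq1 in both libraries. Kcne1, the cardiac partner of Kcnq1, lies 47853 bases from Kcne2 and had 0 counts in both.

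The soluble accessory subunits split. Kcnab2 (ENSMUSG00000028931.7, chr4:152390742-152477871), an aldo-keto reductase-like subunit of Kcna channels, had 5.13 TPM in replicate 2 against 1.23 TPM in replicate 1 and was 17.9-fold higher in replicate 2 by counts (10.1 to 35.1; 274 and 12 counts). Its posterior mean TPM was 7.65 in replicate 2 and 4.28 in replicate 1, a smaller difference than by counts. Its relative Kcnab1 (ENSMUSG00000027827.12, chr3:65109384-65378223) had 0.35 TPM in replicate 2 against 2.90 TPM in replicate 1 and was 6.52-fold lower in replicate 2 (3.85 to 11.7; 17 and 87 counts). Kcnip4 (ENSMUSG00000029088.12, chr5:48389502-49524907), a calcium-binding partner of Kcnd channels, had 1.10 TPM in replicate 2 against 4.27 TPM in replicate 1 and was 3.91-fold lower in replicate 2 (2.56 to 6.11; 30 and 92 counts). Its 3 Kcnd partners summed to 0.57 TPM in replicate 2 against 2.08 TPM in replicate 1.

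Some members passed 1 TPM in 1 library without reaching it on the mean. Kcnip3 (1.47 TPM in replicate 2, 0.24 TPM in replicate 1) and Kcnh3 (1.06 TPM in replicate 2, 0 TPM in replicate 1) passed 1 TPM in replicate 2, and Kcnd3 passed it in replicate 1. Members at 0 counts in both libraries also included Kcna4, Kcna10, Kcnh5, Kcnh7 and Kcns2 among the voltage-gated subunits and Kcnj4, Kcnj6 and Kcnj9 among the inward rectifiers. Many of these are known chiefly from nervous tissue. Of 8 neuronal markers none passed 1 TPM in either library (sum 2.03 TPM in replicate 2, 1.21 TPM in replicate 1, with Elavl3 at 0 in both). Summed TPM of 5 Schwann cell and glia markers was 23.62 in replicate 2 and 11.65 in replicate 1. The part of nervous tissue in these 0 counts was not tested. Kcnj16 had 0 counts in replicate 2 and 1 in replicate 1, and it lies 38196 bases from Kcnj2 on chromosome 11.

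The ratio between the libraries went with base composition in the members as in all genes. GC content is that of the annotated transcripts, taken from GENCODE M21. Over the 28 members, Pearson's r between GC content and the log2 ratio was 0.788 and Spearman's rho 0.840, and over 14067 genes tested they were 0.765 and 0.820; these are correlations across genes of 1 library pair, and genes are not independent replicates. Below 48% GC, 0 of 10 members were over 2-fold higher and 5 were lower, where 2.15% of all genes tested in that band were higher and 64.3% lower. Between 48% and 54%, 2 of 9 were higher and 2 lower, where 38.7% of all genes were higher and 13.3% lower. At 54% and above, 7 of 9 members were higher and 0 lower, where 85.1% of all genes were higher and 1.75% lower.

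**Figure D3:**
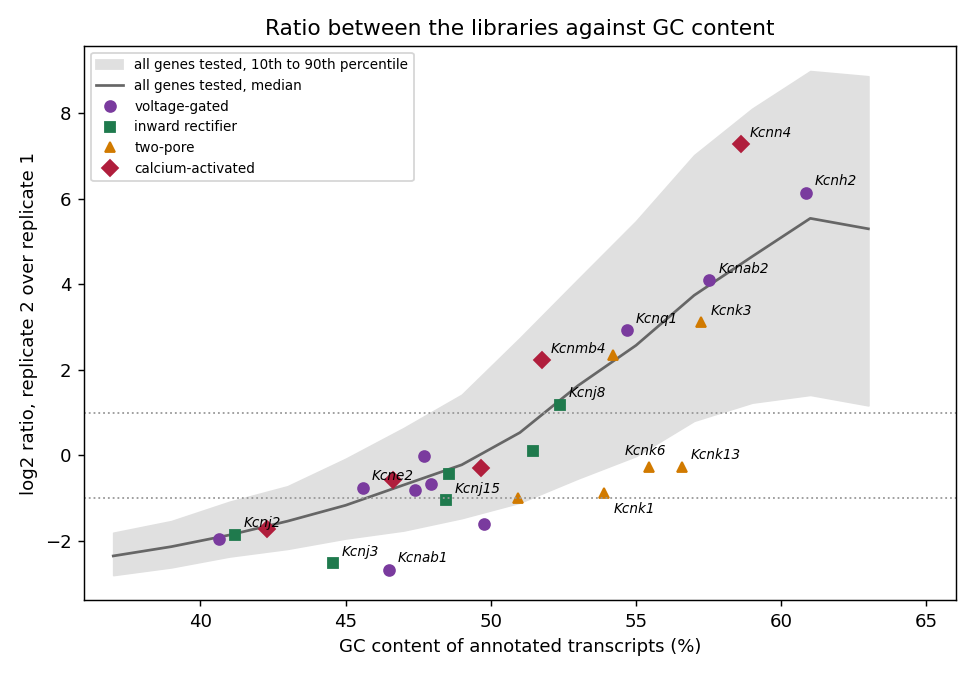
Log2 ratio of scaled counts, replicate 2 over replicate 1 (vertical axis), against GC content of annotated transcripts in percent (horizontal axis) for 27 members, by class; the line and band are the median and the 10th to 90th percentile of all genes tested, and dotted lines mark 2-fold. Members climb with GC content as the line does, with Kcnk1, Kcnk6 and Kcnk13 below it; the point of Kcnn4 rests on 0 counts in replicate 1 and on the added prior count.

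Members stood off that trend unevenly. Once the trend of all genes was subtracted, the two-pore genes Kcnk13, Kcnk6 and Kcnk1 stood at -3.67, -3.09 and -2.88 on the log2 scale, with relatively more reads in replicate 1 than the trend of all genes. With the trend on the GC content of expressed transcripts they stood at -3.37, -1.18 and -2.01, so the offset of Kcnk6 depended most on the measure of GC content. Kcnmb4 stood highest above the first trend, at 1.28, among members counted in both libraries. Kcnj2, Kcnmb2 and Kcnip4, all over 2-fold lower, lay close to the trend, at -0.06, -0.12 and -0.08. With the trend subtracted, 2 members were over 2-fold higher in replicate 2 in place of 9, and 8 were lower in place of 7. The median log2 ratio was then -0.20 for the 28 members and -0.02 for 14067 genes tested. The share of all genes past 2-fold after the subtraction is not given here, so the 2 and the 8 describe the members only. Among named members past 2-fold before subtraction, Kcnk3 and Kcnj8 then changed direction, at -0.63 and -0.056. Within 2-fold, Kcne2 (0.23), Kcne4 (0.47), Kcnmb1 (0.17) and Kcnj5 (-0.69) changed sign. Kcnq1 (0.55), Kcnab2 (0.23), Kcnh2 (0.85) and Kcnk5 (0.21) kept their direction and came within 2-fold, as did Kcnj15, Kcnj2, Kcnmb2 and Kcnip4. Kcnj3 (-1.32), Kcnab1 (-1.89) and Kcnq5 (-1.70) were still over 2-fold lower. Under the trend on the GC content of expressed transcripts, Kcnj3 (-0.67) and Kcnq5 (-0.88) came within 2-fold, and Kcnab1 (-1.04) stayed just past it. With the trend on the GC content of expressed transcripts, Kcnk3 (-2.00) was again reversed, whereas Kcnj8 (0.23) kept its direction. Kcnq1 (-0.78), Kcnh2 (-0.28), Kcnk5 (-0.58) and Kcnmb4 (-4.28) changed direction with that trend. Within 2-fold, Kcne2 (0.11), Kcnj13 (0.13), Kcne4 (0.49), Kcnmb1 (0.051) and Kcnj5 (-0.35) changed sign with it.

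Transcripts of a gene were assigned differently in the 2 libraries for several of the highest members. Of the 28 members, 9 have 1 transcript in the files, 11 of the 19 others had the same leading transcript in both libraries, and 8 had another. The matching share among all genes with several transcripts is not given here, so the 8 are not read as a trait of the members. The leading transcript is the one with the largest percent of its gene's TPM in the authors' transcript tables. For Kcne2 a 1690-base transcript held 97.0% in replicate 2 and 26.7% in replicate 1, where a 1632-base transcript led with 73.3%. For Kcns3 a 2933-base transcript held 100% in replicate 2, and one of 2870 bases held 100% in replicate 1.

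Several longer genes also had another leading transcript. For Kcnk2 the 3131-base transcript that led in replicate 2 with 51.3% stood at 0% in replicate 1, where a 3297-base transcript held 98.5%. For Kcnq1 the 3029-base transcript held 69.0% in replicate 2 and 19.9% in replicate 1, where a 1535-base transcript held 80.1%. For Kcnab2 a 3574-base transcript held 81.0% in replicate 2, whereas in replicate 1 a transcript of 347 bases held 72.6%, beside 12 counts for the gene. Kcne4, Kcnip4 and Kcnab1 also changed their leading transcript. Kcnj15, with 13 transcripts, kept its own, at 71.3% in replicate 2 and 93.3% in replicate 1.

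**Figure D4:**
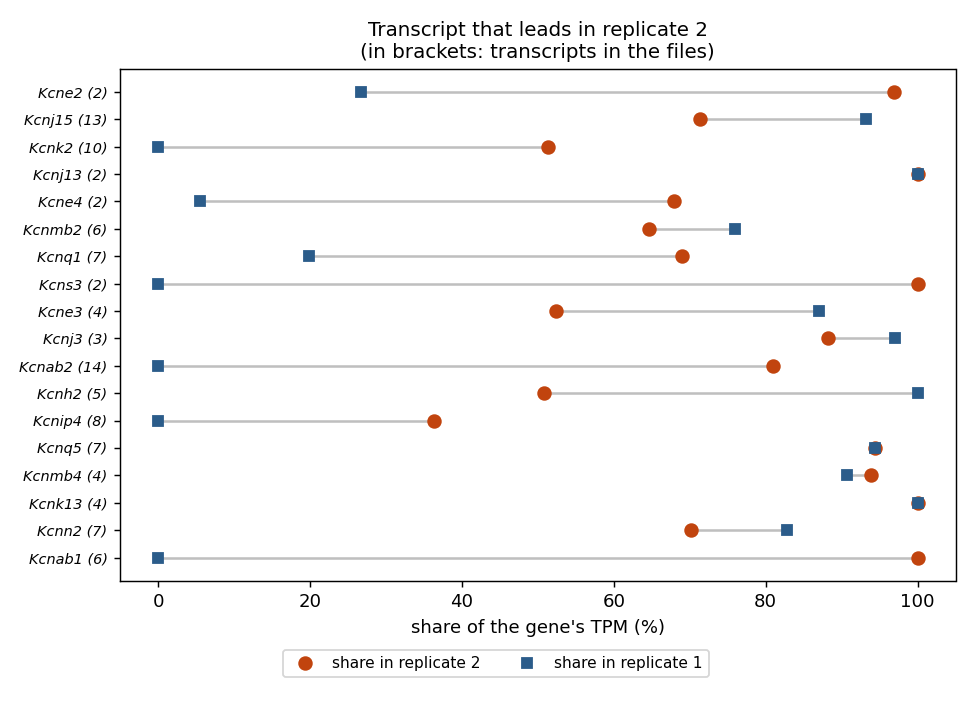
Share of the gene's TPM in percent (horizontal axis) held by the transcript that leads in replicate 2, for 18 members with several transcripts (number in brackets); circles are replicate 2 and squares replicate 1. Kcns3 and Kcnab1 stand at 100% in replicate 2 and 0% in replicate 1, and Kcnj13, Kcnq5 and Kcnk13 show near-equal shares.

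Other genes of potassium transport were measured from lists chosen by function. Of 23 subunits and regulators of potassium pumps and cotransporters, 12 passed 1 TPM in both libraries, and the 23 genes summed to 1067 TPM in replicate 2 against 1114 TPM in replicate 1, above the channels in each library. Atp1b1 and Atp1b3, accessory subunits of the sodium-potassium pump, had the highest means, with 180.33 and 139.73 TPM in replicate 2 and 463.61 and 430.92 TPM in replicate 1. Of 16 of these genes tested, 10 were over 2-fold higher in replicate 2 and 3 lower, beside 39.3% and 28.2% of all genes.

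A list of 13 genes outside the rule held potassium channel subunits together with related and intracellular channels, and 6 passed 1 TPM in both libraries. Their sums were 74.53 TPM in replicate 2 against 58.71 TPM in replicate 1 over all 13 genes. Of 7 tested, 2 were over 2-fold higher and 1 lower, beside 39.3% and 28.2% of all genes tested. Tmem38b, an intracellular cation channel gene, had the highest mean of that list, with 19.06 TPM in replicate 2 against 30.67 TPM in replicate 1. Of 10 hyperpolarisation-activated and cyclic nucleotide-gated channel genes none passed 1 TPM in both, with sums of 4.39 TPM in replicate 2 against 2.34 TPM in replicate 1. The 2 highest by mean were Cngb1 (2.62 TPM in replicate 2, 0.42 TPM in replicate 1) and Cnga2 (0.84 TPM in replicate 2, 1.30 TPM in replicate 1), both within 2-fold by counts.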

How the data were processed

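Polyadenylated RNA of lung from 1 mouse was measured in 2 libraries, both in 1 group. Expected counts, the estimated reads per gene and transcript, were deposited by the authors, and reads matching several places are divided between features. TPM values, per the file headers, are the authors' abundances per 1000000 transcripts, deposited also as posterior means. The percent of its gene's abundance held by each transcript was deposited by the authors. Assembly mm10 and annotation M4 are named in the deposited file descriptions; the sources used here name neither aligner nor quantifier.

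Expected counts were rounded to whole numbers and scaled by TMM in edgeR 4.0.16 (factors 1.10 in replicate 2 and 0.913 in replicate 1), and log2 ratios used a prior of 0.5 counts over all genes whose TPM averaged 1 or more. Intervals of ratios are exact Clopper-Pearson intervals at 95%, and cover counting error only, since reads are not independent molecules. A gene was called detected at 1 TPM, and a ratio past 2-fold was counted; no test was run, as each side holds 1 library. The GC trend was fitted over all genes tested by lowess with a span of 0.3 (statsmodels 0.14.6). Of 43346 genes, 42462 matched the GENCODE M21 annotation by identifier without version, and coordinates are from it. The scripts were tested on simulated data. Members with a mean of at least 1 TPM were named; counts and intervals are given for the 2 highest members of each class, the accessory subunits among them, and for the 5 highest and 5 lowest ratios among members with at least 100 counts. Some genes that these rules reach are not reported here one by one, though they count in totals. Members, lists and rules were chosen with earlier results of these data known. Kcnrg, whose symbol has no number, and Kcnq1ot1 and 4 other antisense genes, which are noncoding, were left out. Alternatives were total-count and DESeq2 1.42.0 scaling, the ratio of TPM, posterior mean TPM, other thresholds and filters, a larger prior and the GC trend.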

Additional observations from a re-analysis of the deposited data

How the results depend on the processing

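With 22 members detected in both libraries at 1 TPM, a threshold of 5 TPM left 9, and single libraries gave 25 to 29. Class sums from 1 library ran from 17.40 to 21.91 TPM for calcium-activated subunits, 46.40 to 93.86 for inward rectifiers, 41.62 to 44.22 for two-pore subunits and 86.28 to 102.56 for voltage-gated subunits. The mean sum of voltage-gated subunits was 94.4 TPM, and 108 TPM from posterior means. Against 9 members over 2-fold higher in replicate 2, there were 34 with no filter on low values (76 members), 3 at a mean TPM of at least 5 (15 members), 2 after subtraction of the GC trend and 1 with the trend on the GC content of expressed transcripts, an alternative chosen after seeing the data. Against 7 over 2-fold lower, there were 20 with no filter, 4 at a mean TPM of at least 5 and 2 past 4-fold. Matching shares of all genes under these alternatives are not given here, so the counts describe the members only. The median log2 ratio of -0.37 became -0.10 with total counts, -0.56 with the TPM ratio, 0.36 with no filter, -0.75 at a mean TPM of at least 5 and -0.20 with the GC trend subtracted. Among named members past 2-fold, signs turned with the GC trend subtracted for Kcnk3 (-0.63) and Kcnj8 (-0.056). Within 2-fold they turned for Kcne2 (0.23), Kcne4 (0.47), Kcnmb1 (0.17) and Kcnj5 (-0.69). With the trend of expressed transcripts, signs of named members past 2-fold turned for Kcnq1 (-0.78), Kcnk3 (-2.00), Kcnh2 (-0.28), Kcnk5 (-0.58) and Kcnmb4 (-4.28). Within 2-fold they turned for Kcne2 (0.11), Kcnj13 (0.13), Kcne4 (0.49), Kcnmb1 (0.051) and Kcnj5 (-0.35). Fewer or more genes tested set the counts under other filters; for the rest the cause was not tested. Ratios could not be computed without either library, since each is the only one on its side, and depth limits members under 3 counts. No paired analysis was possible because both libraries belong to 1 group.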
